A study of Homo sapiens with 27 samples.

Results

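The genes described here are 41 named genes of the lysosome and of its vacuolar proton pump, chosen by symbol. All 41 were found by their Entrez IDs among the 24566 genes of the deposited count table, and all 41 passed the filter on low counts in every fit. They comprise 5 subunits of the V0 sector and 8 of the V1 sector of the proton pump, 11 cathepsins, 7 glycosidases or their activators, 5 membrane proteins, 2 transcription factors and 3 autophagy factors. RNA was sequenced from 2 established human cell lines in 27 libraries of 9 groups with 3 libraries each, all harvested at 48 h. A431, an epidermoid carcinoma line, was left untreated or received a vehicle control, Compound Kushen Injection (CKI) at 1 mg/ml, doxorubicin, or CKI plus doxorubicin. MDA-MB-231, a breast adenocarcinoma line, was left untreated or received CKI at 1 mg/ml, 5-FU at 10 µg/ml, or CKI plus 5-FU. What the vehicle consists of is not stated, and the labels name more than a single dose of doxorubicin without assigning it, so that dose is not given. Each line is a single cell line grown in serum-containing medium, and the replicates are described as biological without a statement of how the cultures were separated, so p-values measure the spread between these libraries. The comparisons ask what CKI did to these genes in each line, alone and on top of each anticancer drug.

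Lysosomes degrade proteins, lipids and glycans at acidic pH. The vacuolar proton pump (V-ATPase) creates that acidity: its membrane-embedded V0 sector carries protons that the cytosolic V1 sector drives by hydrolysing ATP. Many lysosomal genes carry an E-box of the CLEAR type in their promoters, which the transcription factors TFEB and TFE3 recognize when they enter the nucleus on lysosomal stress or starvation. CKI is an extract of Kushen and Baituling rich in basic alkaloids such as matrine and oxymatrine, and weak bases in general can accumulate in acidic organelles.

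The promoter sequences below are shown because that E-box is the feature through which members of different roles could be read together. Some members that changed hold it, such as NEU1, while others, such as GABARAPL1, do not, and the changes are counted by motif further below. RefSeq promoters (GRCh38.p14, 250 bases before to 50 bases after each gene's start) were given for 30 of the 41 members. CACGTG, which reads the same on both strands, was found in 11 of these 30 (36.67%). It was found in 7.435% of all 27305 promoters given and in 8.488% of the 17555 for genes in the count table. The longer TCACGTG or its reverse complement CACGTGA was found in 10 of 30 (33.33%, against 3.82% of all and 4.608% of those in the count table). The full CLEAR palindrome, which is longer again, was found in 3 of 30 (ATP6V1G1, GAA and MCOLN1, 10%, against 0.3809% and 0.5298%). These motifs are nested, so that each longer match is also a match of the shorter one. The windows are 20 bases long, 5′ to 3′ on the gene's strand, with CACGTG in capitals and, in parentheses, the position of the motif's first base relative to the gene's start. They lie at chr6:31862935-31862954 (NEU1, minus strand), chr19:7522576-7522595 and chr19:7522603-7522622 (MCOLN1, plus strand), chr17:80101498-80101517 (GAA, plus strand), chr13:113297040-113297059 and chr13:113297204-113297223 (LAMP1, plus strand), chr11:1763962-1763981 (CTSD, minus strand), chr11:66568717-66568736 (CTSF, minus strand), chr16:67481204-67481223 (ATP6V0D1, minus strand) and chr9:114587704-114587723 (ATP6V1G1, plus strand).
NEU1 (-126): gcgtgatCACGTGggaggag
MCOLN1 (-41): aggcggtCACGTGaggggct
MCOLN1 (-14): accgggtCACGTGaccgagg
GAA (-76): gccgcgtCACGTGacccacc
LAMP1 (-192): gccgggtCACGTGggtccag
LAMP1 (-28): gcgggatCACGTGacgcccg
CTSD (-47): ccgcgccCACGTGaccggtc
CTSF (-123): taacaagCACGTGatagagg
ATP6V0D1 (-59): ttatggtCACGTGaggcgct
ATP6V1G1 (-58): gtgcggtCACGTGacaacgg
LAMP1 held 6 copies of CACGTG, the MCOLN1, GAA, CTSA, CTSF and ATP6V0B windows 2 each. GABARAPL1, MAP1LC3B, SQSTM1, ATP6V0A1, TFEB and TFE3 held none in this window, and no promoter was given for PSAP, CTSK, CTSS, LAMP2 or ATP6V1A. A match is a description of the letters and not evidence that a factor binds.

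Each A431 library held 17757206 to 21756536 counts and each MDA-MB-231 library 19871048 to 22809339, so that 3 counts corresponded to 0.132 to 0.169 CPM, the unit of all levels here, which is a read count relative to the TMM-scaled size of its library. KRT5, KRT14, CDH1, DSG3 and LY6D marked the A431 libraries, with at most 3.96 CPM in any MDA-MB-231 library, and EGFR was also highest there (805 to 3599 CPM against 152 to 363). VIM, ZEB1, AXL and MSN marked MDA-MB-231 (VIM 713 to 1964 CPM against 2.40 to 37.5), and of the markers of other cell types PTPRC and CD3E were at or below 1.95 CPM throughout, while CD14, a monocyte marker, lay between 3.40 and 14.9 CPM. Untreated MDA-MB-231 replicate 1 stood apart from its group, with deviations that fell with GC content across genes (Spearman's rho -0.67, a description) and a median deviation of 0.17 on the log2 scale over the 41 members. Vehicle control replicates 1 and 3 deviated in opposite ways with GC content (rho -0.61 and 0.68). Their part in the results was not tested beyond leaving each library out in turn. In total RNA from cultures, fewer cells of a type and less RNA per cell cannot be told apart.

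In untreated cells the members spanned a wide range of levels, compared here as CPM per kilobase (kb) of transcript. In A431 the order per kilobase ran from CTSD, the aspartic protease cathepsin D, at 988 ± 107 CPM per kb (SD, n = 3), through PSAP, the precursor of the saposins that help hydrolases reach their lipids, at 450 ± 25.4, and CTSH, an aminopeptidase of the cathepsin family, at 415 ± 15.9, down to CTSF at 1.5 ± 0.233 and CTSK at 0.885 ± 0.144. PSAP and CTSH differed by less than the sum of their SDs, whereas CTSD lay far above both. In MDA-MB-231 the highest were CD63, a tetraspanin of late endosomes, at 538 ± 40.1 CPM per kb, CTSD at 450 ± 147 and CTSZ at 424 ± 81.7, whose SDs overlap, and the lowest was CTSV at 1.08 ± 0.223.

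**Figure D1:**
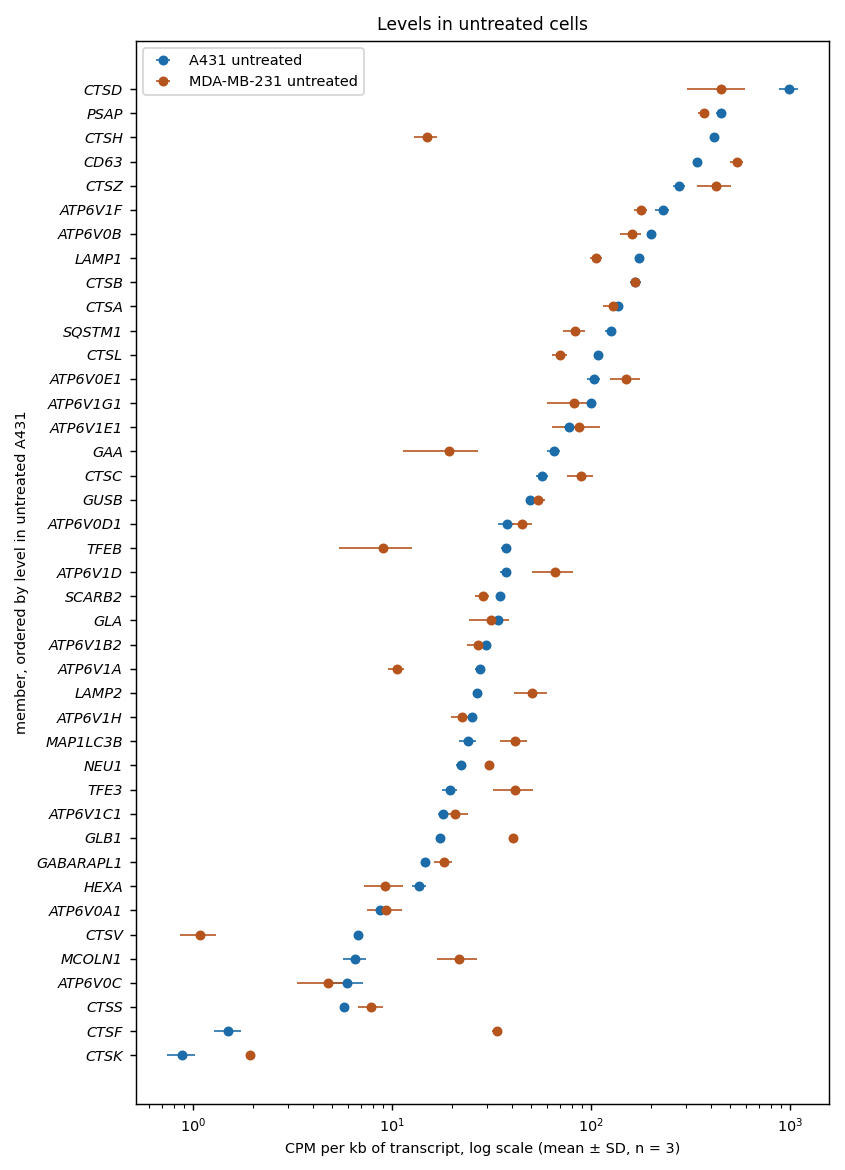
Level of each member in untreated A431 (blue) and untreated MDA-MB-231 (orange), as CPM per kilobase of transcript on a log axis, mean ± SD of 3 libraries, in the order of the A431 levels. CTSH and CTSF stand apart between the lines, with 415 against 14.9 CPM per kb for CTSH and 1.5 against 33.7 for CTSF.

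Between the untreated lines, 15 members were higher in A431 and 15 lower at an adjusted p under 0.05, where 41.9% and 36.7% of the 14848 genes tested were, and 6 and 5 of them were also DE (an absolute log2 difference over 1), where 22.5% and 20.4% of all genes did. Every adjusted p given here comes from edgeR's quasi-likelihood test with Benjamini-Hochberg adjustment over all genes tested. CTSH was 28.8-fold higher in A431 (log2 difference 4.85, adjusted p = 2.1e-13), with 866, 876 and 929 CPM against 36.9, 30.3 and 28.9. CTSF, a cysteine cathepsin, was lower in A431, with 3.29, 2.53 and 3.40 CPM in A431 against 65.7, 68.1 and 73.0 in MDA-MB-231 (log2 difference -4.44, SE 0.12, adjusted p = 8.9e-13). No library of either gene came near the other line. CTSV, a close paralogue of CTSL, was 6.48-fold higher in A431 and GAA, the acid alpha-glucosidase that degrades glycogen, 3.51-fold higher. TFEB was 4.30-fold higher in A431 while its relative TFE3 was lower there (log2 difference -1.03, adjusted p = 6.6e-06). MCOLN1, the calcium channel of the lysosomal membrane, was at 12.4, 12.9 and 15.7 CPM in A431 and at 33.7, 49.5 and 52.8 in MDA-MB-231 (log2 difference -1.68, adjusted p = 1.5e-07). Of the 30 calls, 29 held when any library was left out, and the call of ATP6V1H (log2 difference 0.21, adjusted p = 0.049) did not, with an adjusted p of 0.35 without untreated A431 replicate 2.

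In A431, CKI raised most of these genes. At an adjusted p under 0.05, 23 of the 41 members rose and 9 fell, against 33.3% and 33.7% of the 15881 genes tested, and the median log2 fold change of the members was 0.32 beside 0.003 for all genes tested. At the level called DE, 6 members rose and none fell, where 12% and 10.4% of all genes did. The widest fall among the 9 was that of CTSV, at -0.88. In the GENCODE annotation on GRCh37, the build of the alignments, the genes described first lie at chr12:10365057-10375727 (GABARAPL1, plus strand), chr16:87417559-87438385 (MAP1LC3B, plus), chr5:179233398-179265078 (SQSTM1, plus), chr6:31825436-31830682 (NEU1, minus) and chr10:73576055-73611008 (PSAP, minus). The share of all counts in a library that fell on the 41 members went from 0.821 to 0.885% in untreated A431 to 1.21 to 1.24% with CKI, and from 0.549 to 0.571% to 0.701 to 0.71% when PSAP and CTSD were set aside.

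All 3 autophagy factors rose to the level called DE. GABARAPL1, a ubiquitin-like protein that is conjugated to autophagosome membranes, was at 29.0, 27.4 and 26.4 CPM in untreated A431 and at 116, 117 and 122 with CKI. All CKI libraries lay far above all untreated ones, a 4.03-fold rise (log2 fold change 2.01, SE 0.064, adjusted p = 1.3e-17). MAP1LC3B, the LC3 protein used as a mark of autophagosomes, went from 47.1, 51.0 and 56.9 to 108, 108 and 116 CPM, a log2 fold change of 1.00 (SE 0.078, adjusted p = 7.6e-11). This value sat at the fold threshold and ranged from 0.935 to 1.115 over the alternatives. SQSTM1, the p62 receptor that carries ubiquitinated cargo into autophagosomes, went from 356, 335 and 380 to 785, 839 and 811 CPM (log2 fold change 1.09, SE 0.069, adjusted p = 2e-12). The groups did not overlap in any of the 3 genes. SQSTM1 shares sequence with MRNIP on the opposite strand, and in these unstranded counts reads of such a pair cannot be told apart. The same holds for CTSA with PLTP and ATP6V1F with KCP, and CTSD, HEXA, MCOLN1 and GLB1 overlap another annotated gene on their own strand, so their values are uncertain to that extent.

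Among the glycosidases and activators, 3 of 7 rose and 1 fell. NEU1, the sialidase that trims sialic acid from glycoproteins, was at 76.2, 69.8 and 77.1 CPM in untreated cells and at 208, 223 and 221 with CKI (log2 fold change 1.45, SE 0.059, adjusted p = 8e-16). PSAP, already the gene with the second highest level per kilobase, rose from 1209, 1187 and 1318 to 2985, 3063 and 3087 CPM (log2 fold change 1.21, SE 0.056, adjusted p = 8.7e-15). In both genes the CKI libraries lay far above all untreated ones. GLB1, the beta-galactosidase, went from 44.7, 43.2 and 44.4 to 73.0, 74.4 and 75.4 CPM (log2 fold change 0.66, adjusted p = 8.6e-10). GLA, the alpha-galactosidase A lacking in Fabry disease, went the other way, from 43.0, 47.5 and 44.4 to 35.5, 33.0 and 35.4 CPM (log2 fold change -0.47, adjusted p = 7.1e-06), again without overlap. GAA, GUSB and HEXA had log2 fold changes of 0.17, 0.03 and 0.02 and did not pass the test.

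The cathepsins divided, with 5 of 11 rising and 4 falling. CTSK, a collagen-degrading cysteine protease, had the highest fold (log2 fold change 1.60, SE 0.28, adjusted p = 2.7e-05), but at a low level of 1.61, 1.54 and 1.18 CPM in untreated and 5.09, 4.68 and 4.22 CPM in CKI libraries, which rest on 19 to 28 and 75 to 100 counts. CTSL went from 174, 182 and 179 to 235, 242 and 237 CPM (log2 fold change 0.32, adjusted p = 3.6e-06), and CTSS and CTSA rose by like amounts (0.32 and 0.31). CTSD, at 2083, 1789 and 2217 CPM untreated and 2466, 2786 and 2622 with CKI, had a log2 fold change of 0.28 (adjusted p = 0.027), but its call was lost in 4 of the 6 fits that left out a library, with an adjusted p of 0.16 without untreated A431 replicate 2. CTSV fell from 27.7, 30.3 and 30.5 to 17.4, 15.7 and 18.1 CPM (log2 fold change -0.88, SE 0.081, adjusted p = 1.6e-09). CTSB, the abundant cathepsin B, fell from 596, 606 and 670 to 423, 443 and 447 CPM (log2 fold change -0.60, adjusted p = 1.4e-09), and CTSC (-0.71), the activator of granule serine proteases, and CTSZ (-0.32) fell with it. CTSL and CTSV are close paralogues, so reads they share could be split between them by the counting.

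Among subunits of the proton pump, 3 of 5 in V0 and 4 of 8 in V1 rose, and 1 and 2 fell. ATP6V0A1, an isoform of the large membrane subunit that holds the proton path, was at 37.0, 36.3 and 34.1 CPM untreated and at 72.7, 72.0 and 72.3 with CKI (log2 fold change 0.92, SE 0.057, adjusted p = 1.4e-12). ATP6V1A, the catalytic subunit that binds ATP, went from 123, 122 and 134 to 208, 208 and 215 CPM (log2 fold change 0.65, SE 0.064, adjusted p = 4.4e-09). Both were higher in all CKI libraries. ATP6V1E1 (log2 fold change 0.59), ATP6V0D1 (0.53), ATP6V1H (0.37), ATP6V1D (0.34) and ATP6V0E1 (0.32) also rose. ATP6V1B2, the partner of ATP6V1A in the ATP-binding ring, fell (-0.47), as did ATP6V1F (-0.46) and ATP6V0B (-0.18). Subunits of a single complex therefore did not move in 1 direction. The fall of ATP6V0B was lost without A431 CKI replicate 1 (adjusted p = 0.068) and turned to a rise of 0.22 with offsets for GC content and transcript length. The same offsets ended the calls of ATP6V1F (-0.051), CTSZ (-0.005) and CTSS (0.13). ATP6V0C, the proteolipid of the rotating ring, was at 7.53, 4.95 and 6.99 CPM untreated and 7.64, 8.84 and 8.94 with CKI (log2 fold change 0.30, adjusted p = 0.14). Its row shares exonic sequence with readthrough loci on the same strand, so this low level is uncertain. ATP6V1C1 and ATP6V1G1 did not pass the test.

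Of the membrane proteins, 4 of 5 rose. LAMP2, which with LAMP1 forms most of the glycan lining of the lysosomal membrane, went from 170, 176 and 181 to 303, 307 and 306 CPM (log2 fold change 0.71, SE 0.064, adjusted p = 1e-09), and LAMP1 from 464, 455 and 499 to 634, 652 and 658 (log2 fold change 0.36, adjusted p = 2.2e-06). SCARB2, the receptor that delivers glucocerebrosidase, rose from 159, 161 and 171 to 274, 281 and 278 CPM (log2 fold change 0.67, adjusted p = 1.5e-09). None of these groups overlapped, and CD63 rose too (0.41). MCOLN1 had 12.4, 12.9 and 15.7 CPM untreated and 11.1, 12.8 and 12.4 with CKI, which overlapped (log2 fold change -0.27, adjusted p = 0.084). The transcription factors went apart: TFE3 rose from 68.2, 58.2 and 67.4 to 94.8, 97.2 and 93.1 CPM (log2 fold change 0.47, adjusted p = 5.7e-06) and TFEB fell from 89.1, 81.3 and 91.5 to 54.6, 57.3 and 52.4 (log2 fold change -0.76, SE 0.11, adjusted p = 2.2e-06). Of the 32 calls in this comparison, 30 held when any library was left out, the exceptions being CTSD and ATP6V0B.

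**Figure D2:**
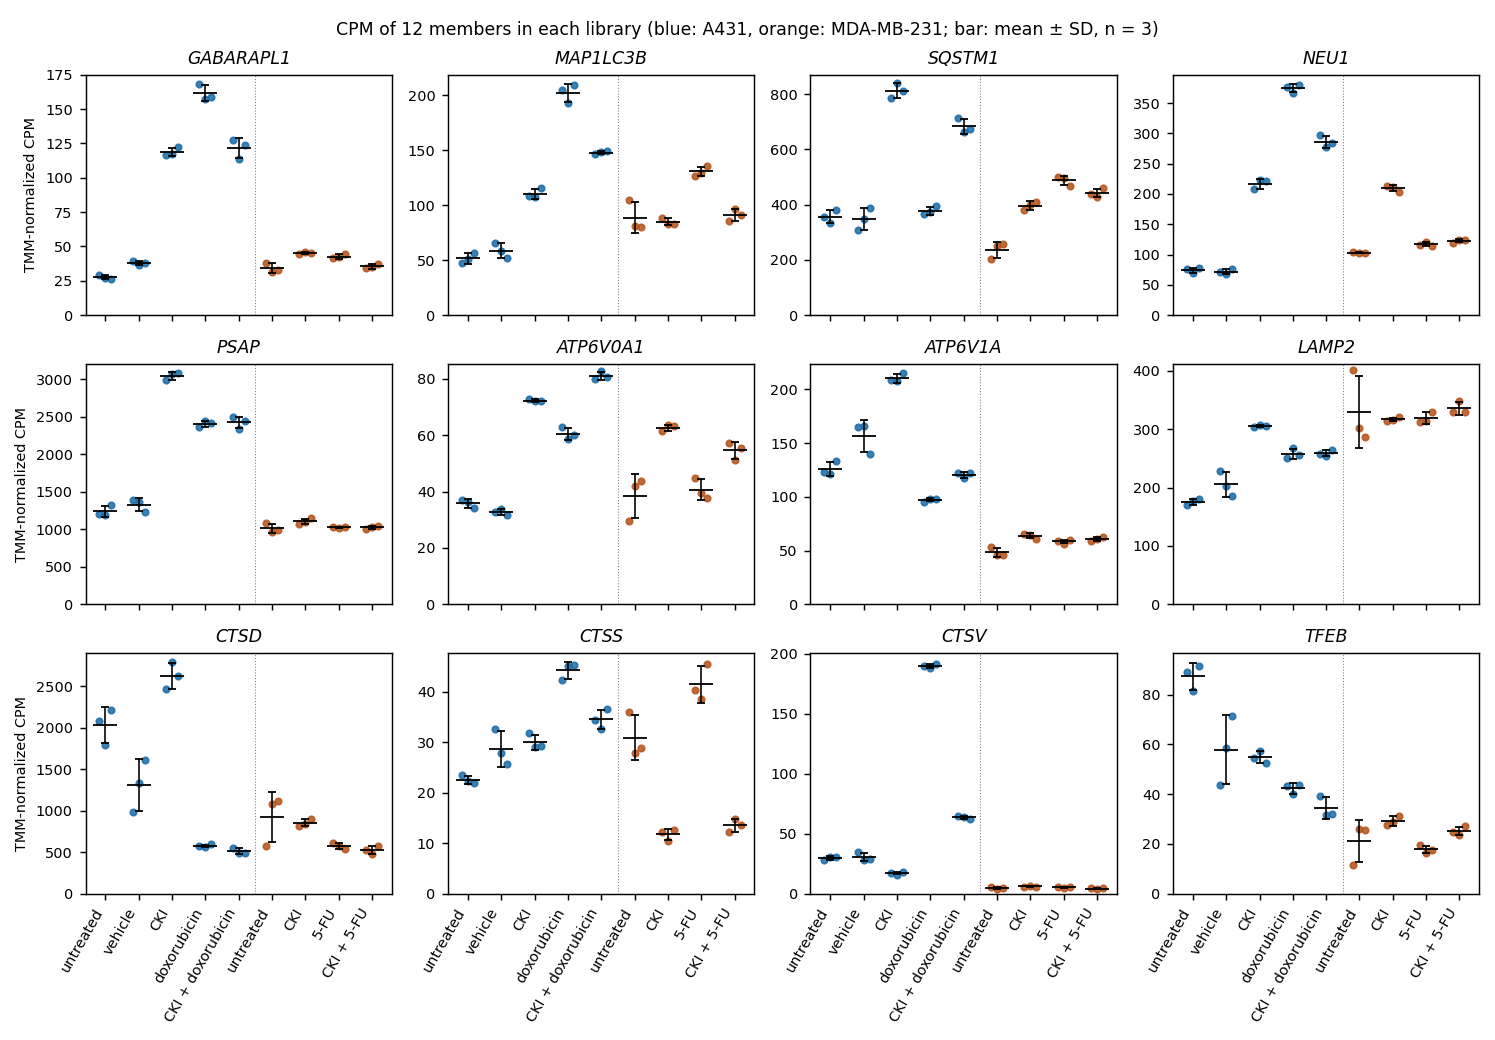
TMM-normalized CPM of 12 members in every library of the 9 groups, A431 in blue and MDA-MB-231 in orange, with bars for mean ± SD of 3 libraries and axes from 0. GABARAPL1, NEU1 and PSAP are higher in all CKI libraries of A431 than in any untreated or vehicle library, and CTSV is near 190 CPM with doxorubicin alone.

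The vehicle control served as a further reference for CKI in A431. Against it, 26 members rose and 6 fell, where 32% and 33% of all genes did, and 6 rose and none fell to the level called DE, where 11.3% and 8.22% of all genes did. GABARAPL1 had a log2 fold change of 1.53, NEU1 1.49, CTSK 1.28, SQSTM1 1.12, PSAP 1.09 and ATP6V0A1 1.04. All but ATP6V0A1 were also DE against untreated cells, and MAP1LC3B, DE there, had 0.81 here. The reference mattered more for TFEB, with 43.6, 58.5 and 71.3 CPM in the vehicle libraries, which left a log2 fold change for CKI of -0.18 (adjusted p = 0.17) in place of -0.76. CTSD had 987, 1334 and 1608 CPM with vehicle, and its log2 fold change for CKI was 0.90 (adjusted p = 1.5e-07) in place of 0.28. CTSS, ATP6V1F and GAA changed likewise, at -0.03, 0.06 and 0.81 against vehicle and 0.32, -0.46 and 0.17 against untreated cells. Between the vehicle and untreated libraries themselves, 9 members rose and 12 fell, where 23.2% and 19.3% of all genes did, with TFEB at -0.58 (-0.10 with offsets for GC content and length, no longer past the test), CTSD at -0.62 and GABARAPL1 at 0.48. None was DE, where 1.05% of all genes were upward and 1.5% downward. In that comparison log2 fold changes fell with GC content over all genes (rho -0.58, a description), and the part of GC content in these differences was not tested beyond the offsets given in the closing section. Of its 21 calls, 12 held when any library was left out.

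In MDA-MB-231 the change with CKI was smaller in number. Here 12 members rose and 5 fell, where 17.4% and 18.8% of the 13999 genes tested did, with a median log2 fold change of 0.06 over the members and -0.007 over all genes. NEU1 was DE upward and CTSS downward, where 3.76% and 2.21% of all genes were. NEU1 went from 104, 103 and 103 to 213, 211 and 204 CPM (log2 fold change 1.01, SE 0.052, adjusted p = 6.8e-08). CTSS, a cysteine protease known from antigen processing, fell from 36.0, 28.0 and 28.8 to 12.2, 10.4 and 12.6 CPM (log2 fold change -1.41, SE 0.12, adjusted p = 4.8e-06). The CKI libraries of both genes lay wholly outside the range of the untreated ones. NEU1 sat near the fold threshold and was at 0.996 without MDA-MB-231 CKI replicate 1, which left CTSS as the single DE member.

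Proton pump subunits gave 6 of the 12 rises in this line, 4 of 5 in V0 and 2 of 8 in V1. ATP6V0A1 went from 29.4, 42.1 and 43.6 to 61.4, 63.5 and 63.2 CPM (log2 fold change 0.70, SE 0.12, adjusted p = 0.00089). ATP6V1A went from 53.4, 45.8 and 45.6 to 65.3, 65.0 and 61.2 CPM (log2 fold change 0.39, adjusted p = 0.0011), and ATP6V1F from 110, 125 and 126 to 170, 147 and 163 (log2 fold change 0.40, adjusted p = 0.0012). The CKI libraries were above all untreated ones in each. ATP6V0D1 (0.42), ATP6V0E1 (0.32) and ATP6V0B (0.31) also rose, and ATP6V0C, at 3.5, 5.62 and 6.49 against 4.05, 4.38 and 4.89 CPM, overlapped. SQSTM1 rose from 202, 250 and 256 to 380, 397 and 411 CPM (log2 fold change 0.74, adjusted p = 3.2e-05) and GABARAPL1 from 38.3, 31.6 and 32.8 to 44.5, 45.9 and 45.5 (log2 fold change 0.40, adjusted p = 0.0019), while MAP1LC3B (105, 81.4 and 80.0 against 88.5, 83.3 and 82.6 CPM) overlapped. GLA rose from 52.0, 38.5 and 34.1 to 66.3, 65.7 and 63.7 CPM (log2 fold change 0.64, adjusted p = 0.0014). CTSF (-0.47), CTSC (-0.45), HEXA (-0.52), the beta-hexosaminidase alpha chain, and GLB1 (-0.17) fell. PSAP, LAMP1, LAMP2, CTSB, CTSD, CTSL and both transcription factors did not pass the test, with TFEB at 11.4, 26.0 and 25.6 CPM untreated and 27.5, 28.6 and 31.3 with CKI.

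Several of these values turn on untreated MDA-MB-231 replicate 1. Without it, 18 members rose and 11 fell with CKI, while over all genes the calls also grew, to 3582 up and 3780 down of 14193, so that the share of members that fell was near the general one. TFEB was 11.4 CPM in that library and CTSD 576, against 1084 and 1114 in the other untreated libraries, and without it CTSD fell (log2 fold change -0.37, adjusted p = 2.9e-06), as did GAA (-0.30, from 0.01 with all libraries). Of the 17 calls made with all libraries, 13 held when any library was left out, and those of ATP6V0E1, GLB1, GUSB and SCARB2 were lost in 2 to 5 of 6 fits, with adjusted p up to 0.13.

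**Figure D3:**
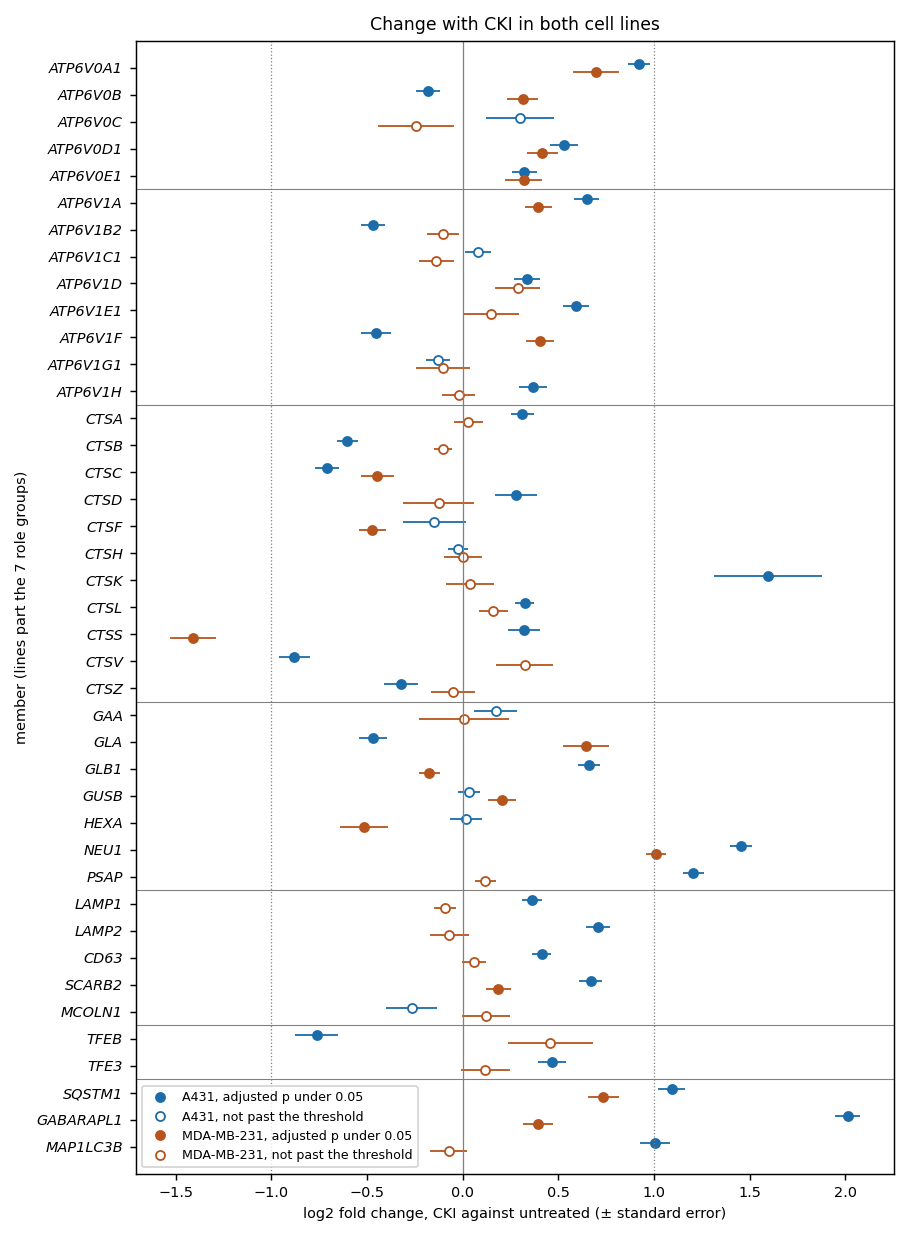
Log2 fold change of each member with CKI against untreated cells, with its standard error, in A431 (blue) and MDA-MB-231 (orange), filled where the adjusted p was under 0.05. GABARAPL1 lies at 2.01 and 0.40, NEU1 at 1.45 and 1.01, CTSS at 0.32 and -1.41, and GLA at -0.47 and 0.64.

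The difference between the lines was tested as an interaction over the 12 untreated and CKI libraries. It passed an adjusted p of 0.05 for 22 members, 15 with the higher log2 fold change in A431 and 7 with the higher in MDA-MB-231, where 23.1% and 23.9% of the 14848 genes tested did. Beyond 1 on the log2 scale were 5 and 3 members, where 8.87% and 9.62% of all genes were. CTSS differed most upward (1.74, SE 0.16, adjusted p = 1.7e-06), with a fall in MDA-MB-231 (-1.41) and a smaller rise in A431. That rise ranged from 0.13 to 0.43 over the alternatives, with adjusted p up to 0.078. Against vehicle CTSS did not pass the test. GABARAPL1 (1.63, adjusted p = 2e-07), CTSK (1.57), PSAP (1.10, adjusted p = 2e-06) and MAP1LC3B (1.09) had the higher change in A431. Of these, CTSK (0.04), PSAP (0.12) and MAP1LC3B (-0.07) did not pass the test for CKI in MDA-MB-231. TFEB (-1.22, adjusted p = 0.0036), CTSV (-1.20) and GLA (-1.10, adjusted p = 0.00021) had the lower change in A431. The value of TFEB was -0.93 without untreated MDA-MB-231 replicate 1, and with the vehicle libraries in place of untreated A431 it was -0.64 and no longer passed the test (adjusted p = 0.16). For NEU1, which rose in both lines, the difference was 0.45 (adjusted p = 0.0011), and for ATP6V0A1 it was 0.23 with an adjusted p of 0.24 (SE 0.15), but without the deviating untreated library of MDA-MB-231 it was 0.38 (adjusted p = 0.00011). Of the 22 calls, 17 held when any library was left out, and those of ATP6V1B2, ATP6V1H, CTSA, HEXA and SQSTM1 were lost in 2 to 10 of 12 fits, with adjusted p up to 0.19.

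Doxorubicin, which damages DNA as a topoisomerase II poison, moved more of these genes in A431 than CKI did, as it did over all genes. In these libraries 25 members rose and 11 fell against untreated cells, where 40.7% and 39.9% of all genes did, with a median log2 fold change of 0.46 against 0.02 over all genes. Of the members, 10 rose and 2 fell to the level called DE, where 23% and 14.3% of all genes did. CTSV, which had fallen with CKI, went from 27.7, 30.3 and 30.5 to 190, 188 and 191 CPM (log2 fold change 2.66, SE 0.073, adjusted p = 6e-19). CTSF went from 3.29, 2.53 and 3.40 to 15.7, 16.3 and 15.9 CPM (log2 fold change 2.35), CTSL from 174, 182 and 179 to 472, 466 and 494 (1.39), and CTSB from 596, 606 and 670 to 1009, 959 and 1058 (0.67, adjusted p = 2e-10). The groups of these cathepsins were far apart. CTSD moved the other way, from 2083, 1789 and 2217 to 575, 563 and 591 CPM (log2 fold change -1.84, SE 0.11, adjusted p = 7e-13).

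NEU1 reached 376, 367 and 380 CPM with doxorubicin (log2 fold change 2.31, SE 0.06, adjusted p = 1.9e-19), GABARAPL1 168, 157 and 159 (2.52, adjusted p = 1.4e-19) and MAP1LC3B 205, 193 and 209 (1.94). CTSK (1.76), MCOLN1 (1.12), GLA (1.08, to 95.2, 97.4 and 97.2 CPM) and ATP6V1E1 (1.04) were also DE upward. SQSTM1, at 368, 372 and 395 CPM, overlapped with untreated cells (log2 fold change 0.06, adjusted p = 0.46). TFEB fell to 43.4, 39.8 and 43.8 CPM (log2 fold change -1.07, adjusted p = 1.2e-08) and TFE3 to 52.7, 52.2 and 52.7 (-0.33, adjusted p = 0.00041). Over the alternatives, vehicle as reference among them, the value of TFEB ranged from -1.135 to -0.487. It passed the test in all of them but was not always beyond 1. PSAP rose to 2364, 2439 and 2419 CPM (log2 fold change 0.93). ATP6V0A1 rose (0.73) while ATP6V1A fell to 95.7, 98.3 and 97.9 CPM (-0.40, adjusted p = 6.5e-06). Scaling by library size alone moved the median of all genes to 0.36 and turned TFE3 to 0.02 and 7 other members (ATP6V0B, ATP6V0E1, ATP6V1B2, ATP6V1H, CTSC, HEXA and SCARB2) above 0, so the direction of these weaker changes depends on the scaling. ATP6V1B2 (-0.058), ATP6V1H (-0.06) and SCARB2 (-0.124) were not past the test in the main fit. With library size alone they passed it as rises (adjusted p = 0.00014, 0.0014 and 0.0018). That scaling also ended the call of ATP6V1A (-0.056), and TFE3 was not past the test against vehicle (-0.10). Of the 36 calls, 33 held when any library was left out, the exceptions being ATP6V0B, ATP6V0C and ATP6V1F.

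With CKI added to doxorubicin, cathepsins and glycosidases were lower and proton pump subunits higher than with doxorubicin alone. This comparison shares its doxorubicin libraries with the one before. Here 13 members rose and 23 fell, where 33.8% and 29.8% of all genes did. CTSV was at 64.8, 64.0 and 62.0 CPM with both agents (log2 fold change -1.56, SE 0.068, adjusted p = 7.5e-15), CTSF at 5.89, 5.49 and 6.5 (-1.40, adjusted p = 2e-10) and MCOLN1 at 13.3, 12.6 and 12.6 against 31.2, 29.7 and 29.6 (-1.22, adjusted p = 7.8e-09). These 3 were DE and none was DE upward, where 8.03% and 6.89% of all genes were. All cathepsins but CTSD fell, 10 of 11, and so did 6 of 7 glycosidases or activators, PSAP excepted (2491, 2341 and 2436 CPM, log2 fold change 0.03). The call of CTSK among them (-0.62) was lost in 3 of 6 fits that left out a library, with an adjusted p of 0.22 without A431 doxorubicin replicate 1. Proton pump subunits rose, 4 of 5 in V0 and 5 of 8 in V1, with ATP6V0A1 at 79.9, 82.7 and 80.6 CPM (log2 fold change 0.44, adjusted p = 2.4e-07), ATP6V1B2 at 0.42 and ATP6V1A at 0.33, while ATP6V0C (-0.66, adjusted p = 0.0021) and ATP6V1F (-0.23, but -0.012 with the offsets) fell. SQSTM1 went from 368, 372 and 395 to 715, 664 and 674 CPM (log2 fold change 0.88, adjusted p = 1.8e-10), TFE3 from 52.7, 52.2 and 52.7 to 86.7, 85.8 and 90.8 (0.76, adjusted p = 5.6e-09) and SCARB2 from 150, 156 and 154 to 208, 203 and 207 (0.45). GABARAPL1 (128, 113 and 124 CPM) and MAP1LC3B (146, 148 and 149) fell, by 0.39 and 0.43 on the log2 scale. Of the 36 calls, 32 held when any library was left out, the others being ATP6V0D1, ATP6V1F, CTSK and TFEB.

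Whether CKI acted differently with doxorubicin present was tested as an interaction. It passed for 32 members, 5 upward and 27 downward, where 31.4% and 26% of all genes passed, with a median of -0.37 over the members and 0.04 over all genes. GABARAPL1 (-2.40, SE 0.086, adjusted p = 2e-15), CTSK (-2.22), NEU1 (-1.82, adjusted p = 3.7e-14), MAP1LC3B (-1.44), CTSF (-1.25), PSAP (-1.18) and GLB1 (-1.16) had interactions beyond 1 on the log2 scale, and all 7 were negative, where 8.56% of all genes passed that limit upward and 10.9% downward. In 6 of them CKI raised the level in the absence of doxorubicin, and CTSF was not past the test there (-0.15). For SQSTM1, raised by CKI in both settings, the interaction was -0.22 (adjusted p = 0.059). It ranged from -0.356 to -0.165 over 23 alternatives, and stayed short of the test in 13 of them and passed in the others. For TFE3 the interaction was 0.29 (adjusted p = 0.018). The call of TFE3 was lost with the vehicle libraries as reference (0.066, adjusted p = 0.61), with library-size scaling (0.16), with the stricter count filter (0.22) and without CKI plus doxorubicin replicate 3 (adjusted p = 0.053). With the vehicle libraries in place of the untreated ones, 12 members went beyond 1 in place of 7, and the share over all genes with that reference is not given here. Of the 32 calls, 26 held when any library was left out.

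In MDA-MB-231, 5-FU, a pyrimidine analogue that blocks thymidylate synthesis, raised 16 members and lowered 11, where 28.6% and 28.5% of all genes moved so. CTSF fell from 65.7, 68.1 and 73.0 to 31.5, 30.4 and 30.1 CPM (log2 fold change -1.17, SE 0.07, adjusted p = 8.6e-08), GAA fell by 1.08 and CTSA, the protective carboxypeptidase that stabilizes NEU1 and GLB1, by 1.05 on the log2 scale. SQSTM1 rose from 202, 250 and 256 to 499, 497 and 468 CPM (log2 fold change 1.05, SE 0.081, adjusted p = 6.5e-07). These were the members called DE, 1 upward and 3 downward, where 6.01% and 7.31% of all genes were. Without untreated replicate 1 the log2 fold change of SQSTM1 was 0.947, short of DE, and 3 members were DE. CTSB fell from 616, 634 and 618 to 335, 343 and 339 CPM (log2 fold change -0.88), GLB1 from 107, 99.1 and 101 to 65.0, 64.3 and 63.6 (-0.67, adjusted p = 9.9e-07) and CTSD had a log2 fold change of -0.69 with groups that overlapped (adjusted p = 0.0073, or 0.051 with these groups alone). CTSS (0.42), MAP1LC3B (0.56) and GLA (0.61) rose. Of the 27 calls, 21 held when any library was left out, and those of ATP6V0B, ATP6V0C, ATP6V1D, CTSH, CTSZ and LAMP1 were lost in 2 to 5 of 6 fits, with adjusted p up to 0.18.

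CKI on top of 5-FU, a comparison that shares the 5-FU libraries, raised 5 members and lowered 11, where 25.9% and 24.5% of all genes moved so. CTSS was again the widest change, from 40.3, 38.5 and 45.6 to 12.2, 14.8 and 13.7 CPM (log2 fold change -1.61, SE 0.12, adjusted p = 7.8e-07), and it was the single member called DE, where 5.26% of all genes were upward and 4.51% downward, though without 5-FU replicate 3 ATP6V0C was DE too (-1.01). NEU1, which rose with CKI alone, was at 120, 124 and 124 CPM against 116, 121 and 114, which overlapped (log2 fold change 0.07, adjusted p = 0.3). SCARB2 rose from 114, 110 and 115 to 154, 164 and 154 CPM (log2 fold change 0.48) and ATP6V0A1 from 44.8, 39.5 and 37.9 to 57.2, 51.2 and 55.3 (0.42, adjusted p = 0.012). The call of ATP6V0A1 was lost without 5-FU replicate 3 (adjusted p = 0.051). ATP6V0C fell from 8.51, 7.15 and 6.20 to 3.95, 3.91 and 3.77 CPM (-0.91), MAP1LC3B fell by 0.52 and LAMP1 from 319, 311 and 320 to 233, 240 and 248 CPM (-0.40, adjusted p = 0.00015). Of the 16 calls, 10 held when any library was left out.

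The interaction of CKI and 5-FU passed for 17 members, 4 upward and 13 downward, where 17.1% and 14.3% of all genes passed, and none went beyond 1 on the log2 scale together with the adjusted p, where 3.04% of all genes did upward and 3.81% downward. NEU1 (-0.94, SE 0.073, adjusted p = 5.1e-06), SQSTM1 (-0.88, adjusted p = 0.00019), GABARAPL1 (-0.65) and ATP6V1F (-0.55) had a lower log2 fold change with CKI when 5-FU was present, and CTSB a higher one (0.42, adjusted p = 0.00067). GABARAPL1 rose with CKI alone and fell with CKI on top of 5-FU (-0.26, adjusted p = 0.015), while NEU1 (0.07), SQSTM1 (-0.14) and ATP6V1F (-0.15) did not pass the test there. That fall of GABARAPL1 was lost in 2 of 6 fits that left out a library, with adjusted p up to 0.065. For CTSS the interaction was -0.20 with an SE of 0.17 and an adjusted p of 0.39. Of the 17 calls, 9 held when any library was left out, and without untreated replicate 1 the counts were 8 upward and 22 downward. Calls over all 14193 genes tested also grew without that library, to 3582 up and 3780 down with CKI and 4960 and 4888 with 5-FU. For the interaction in that fit, the share over all genes is not given here.

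**Figure D4:**
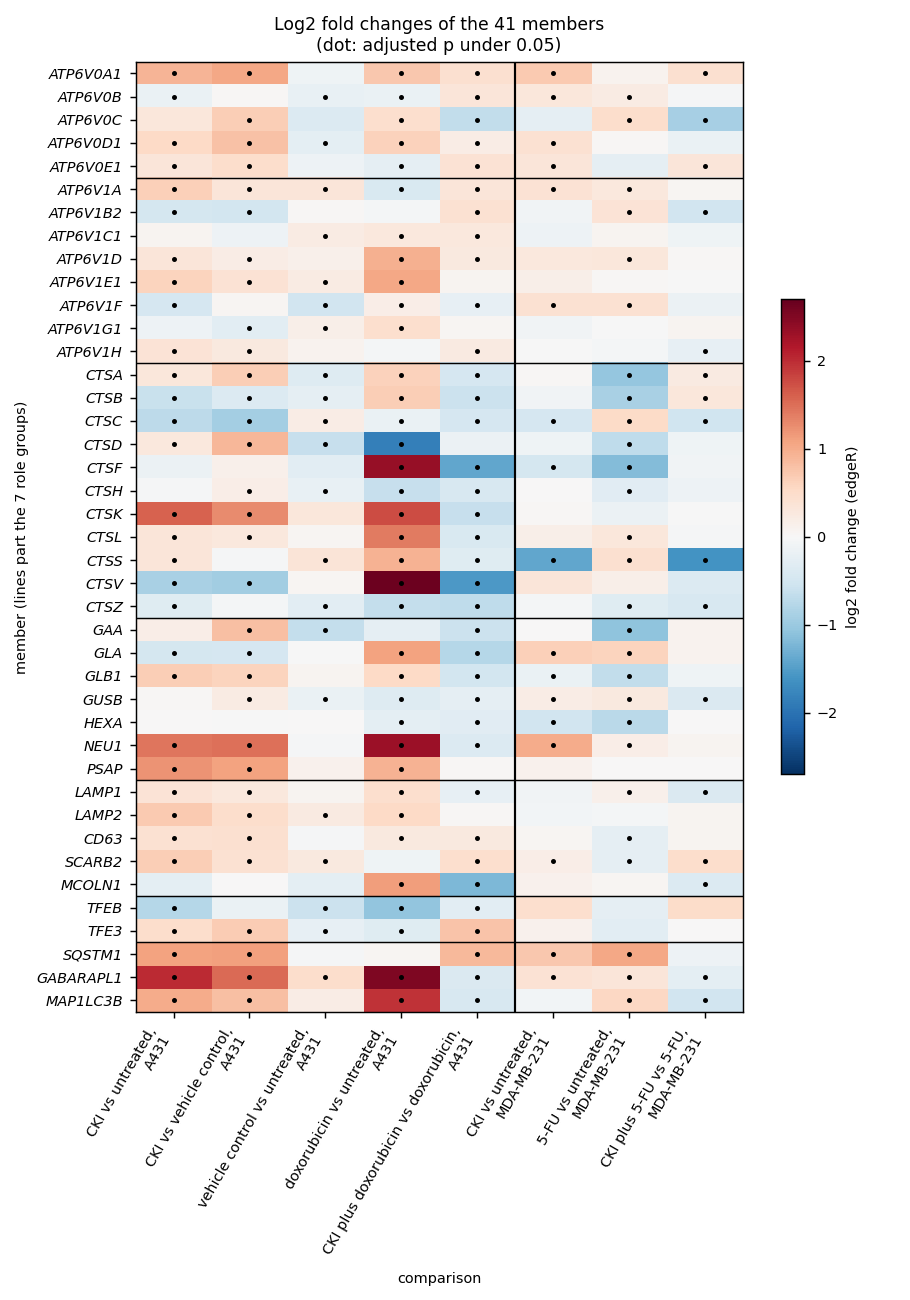
Log2 fold changes (edgeR) of the 41 members in 8 comparisons, A431 to the left of the vertical line and MDA-MB-231 to its right, red for higher and blue for lower, with a dot where the adjusted p was under 0.05. With CKI alone in A431 the row of GABARAPL1 reads 2.01 and with doxorubicin 2.52, while CTSS is -1.41 with CKI and -1.61 with CKI on top of 5-FU in MDA-MB-231.

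The changes were also counted by the motif shown above, as a description. With CKI in A431, 5 of the 10 members whose promoter window held TCACGTG or CACGTGA rose and 1 fell (median log2 fold change 0.23), and of the 20 without it 11 rose and 6 fell (median 0.33), beside 33.3% and 33.7% of all genes. Against vehicle the order of the medians was the opposite, with 6 rising and 1 falling of 10 (median 0.47) and 14 and 3 of 20 (median 0.33), beside 32% and 33% of all genes. With CKI in MDA-MB-231, 3 rose and 1 fell with the motif (median 0.018) and 7 and 2 without it (median 0.17), beside 17.4% and 18.8%. With doxorubicin, 7 of 10 rose and 2 fell with the motif (median 0.54), and 12 of 20 rose and 6 fell without it (median 0.36), beside 40.7% and 39.9% of all genes. NEU1 and CTSF, whose windows are printed, are among the first, and GABARAPL1, MAP1LC3B and CTSV among the second.

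Other genes of the same pathways were counted from 4 lists, to be read beside the 33.3% of all genes that rose and the 33.7% that fell with CKI in A431. With CKI in A431, 23 of 32 other lysosomal hydrolases or activators rose and 5 fell (median log2 fold change 0.57), among them IDUA, the iduronidase of glycosaminoglycan breakdown (1.98, adjusted p = 2e-11), and LIPA, the acid lipase (1.57, adjusted p = 5.7e-16). Of 26 other membrane or sorting genes 15 rose and 6 fell, led by SLC17A5, the sialic acid exporter (2.28, adjusted p = 1e-15), and OSTM1 (1.83). Of 35 other genes of MiT factors, the lysosomal mTORC1 scaffold and autophagy, 22 rose and 4 fell, with WIPI1, which binds the forming autophagosome, 13.7-fold higher (log2 fold change 3.77, SE 0.099, adjusted p = 6.3e-19) and MITF, a relative of TFEB, at 1.63. Of 18 other V-ATPase subunits or accessory genes 8 rose and 5 fell, shares near those over all genes, with ATP6V0D2 at 3.04 (SE 0.34, adjusted p = 4.1e-08) and NCOA7 at 1.87. Against vehicle, 26 rose and 3 fell of 32, 11 and 5 of 26, 19 and 4 of 35, and 8 and 5 of 18, in the same order. There 32% of all genes rose and 33% fell. The median of the membrane or sorting genes was 0.096 there and 0.32 against untreated cells, and that of the hydrolases 0.54 and 0.57.

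In MDA-MB-231 the same lists gave 10 rises and 2 falls of 31, 8 and 2 of 26, 9 and 4 of 36, and 3 and 0 of 19, in the same order, where 17.4% of all genes rose and 18.8% fell. The rises of the V-ATPase list were thus no more frequent than over all genes. LAMP3 (2.25, SE 0.31, adjusted p = 0.00016), GPNMB (1.33), CTSO (-1.13), ARSA (1.03), WIPI1 (0.90) and SLC17A5 (0.79) had the widest changes in their lists, together with ROGDI (0.69) and ATP6V0E2 (0.48) of the V-ATPase list. WIPI1 and SLC17A5 rose in both lines, as NEU1, SQSTM1, GABARAPL1, ATP6V0A1 and ATP6V1A did among the 41 members.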

How the data were processed

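RNA was extracted with the PureLink kit and sequenced from NEBNext Ultra libraries as unstranded paired-end reads. The authors trimmed reads with Trim Galore 0.3.7 and aligned them with STAR 2.5.3a to hg19, per the submitters' processing notes, and deposited raw read counts per gene. The counting tool and annotation are not given in the sources used here. Of 24566 gene rows, 24422 matched a gene table by ID and 1597 held no count.

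From the deposited counts, edgeR 4.0.16 (R 4.3.3) was run with filterByExpr, TMM scaling and the quasi-likelihood test. Each cell line was fitted with all its groups, which share an estimate of the spread, and the 12 untreated and CKI libraries were fitted together for differences between lines. Adjusted p-values are Benjamini-Hochberg over all genes tested, and DE means an adjusted p under 0.05 with an absolute log2 fold change over 1. Printed CPM are TMM-scaled over all 27 libraries. Sequencing depth of 17757206 to 22809339 counts gives a floor of 0.132 to 0.169 CPM for 3 counts, which covers counting error only. No pair of replicates had identical counts. The code was tested on simulated counts with known changes.

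Alternatives were DESeq2 1.42.0, library-size scaling, other filters, the compared groups alone, a replicate block, offsets for GC content and length, vehicle libraries used instead of untreated ones, and leaving out each library. Same-numbered libraries did not deviate together (correlations from -0.3 to 0.12), so the numbers do not pair the samples. Members and lists were chosen with earlier results of these data known. Per-library values are given for members DE in a CKI comparison, for the widest change in each role and line, and for 12 members always named, 24 of 41 in all. Values of other members, and per-library values of CTSH, were chosen after they were seen. From each wider list, up to 2 genes per line are named. Promoter windows come from RefSeq (GRCh38.p14), and their coordinates are not in the build of the counts.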

Additional observations from a re-analysis of the deposited data

Results flagged for a closer look

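The results below are those in which the change with CKI differed between settings by an interaction test in edgeR. The difference between the lines passed for 22 members, where 23.1% of all genes passed upward and 23.9% downward. Beyond 1 on the log2 scale it was 1.57 for CTSK, 1.74 for CTSS, -1.20 for CTSV, -1.10 for GLA, 1.10 for PSAP, -1.22 for TFEB, 1.63 for GABARAPL1 and 1.09 for MAP1LC3B, positive where the change was higher in A431. Of all genes 8.87% passed that limit upward and 9.62% downward. With the vehicle libraries in place of untreated A431, the value of TFEB was -0.64 and no longer passed the test (adjusted p = 0.16). The difference between CKI with and without doxorubicin in A431 passed for 32 members, where 31.4% of all genes passed upward and 26% downward. Beyond 1 it was -1.25 for CTSF, -2.22 for CTSK, -1.16 for GLB1, -1.82 for NEU1, -1.18 for PSAP, -2.40 for GABARAPL1 and -1.44 for MAP1LC3B. For all genes, 8.56% passed that limit upward and 10.9% downward. The difference between CKI with and without 5-FU in MDA-MB-231 passed for 17 members, where 17.1% of all genes passed upward and 14.3% downward.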

How the results depend on the processing

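Of 363 counts of members under alternatives other than leaving out a library, 343 stayed within the limit set for them, as did 4552 of 4961 values of single members, of which 46 reversed, 153 lost the call and 210 gained it. Medians of the members are not in this tally, and 8 of them moved with library size alone and 7 with offsets for GC content and length. The causes were not tested. The depth limits ATP6V0C, CTSK and CTSF in A431 most, which rest on few counts.

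With the compared groups alone, members down with CKI in MDA-MB-231 were 3 (5 with all groups), members up with vehicle 3 (9), members down with CKI on top of 5-FU 18 (11) and members up in the CKI by doxorubicin interaction 8 (5). Over all genes these fits gave 1401 down of 13524 with CKI in MDA-MB-231 (2637 of 13999 with all groups). They gave 2191 up of 13351 with vehicle (3682 of 15881). With CKI on top of 5-FU, 4566 of 13681 were down (3433 of 13999). Scaling by library size alone gave for 5-FU 7 down (11) and 2 DE (4), for doxorubicin 4 down (11), for the CKI by 5-FU interaction 2 up (4) and 1 DE (0), and for the CKI by doxorubicin interaction 2 up (5). Over all genes this scaling gave 3019 down (3994) and 1910 DE (1866) with 5-FU, and 4272 down with doxorubicin (6335). In the CKI by 5-FU interaction it gave 1960 up (2389). It moved the median of all genes to 0.36 with doxorubicin, 0.13 with 5-FU, 0.11 with CKI in A431 and 0.12 with CKI against vehicle, and the share of all changed genes that rose to 67% from 50.5% with doxorubicin, to 63.3% from 50% with 5-FU, to 61.1% from 47.9% with CKI in MDA-MB-231 and to 44% from 54.6% in the CKI by doxorubicin interaction. With doxorubicin it reversed ATP6V0B (0.17), ATP6V0E1 (0.11), ATP6V1B2 (0.29), ATP6V1H (0.28), CTSC (0.17), HEXA (0.073), SCARB2 (0.22) and TFE3 (0.02). Requiring at least 10 counts in every library gave 6 down with doxorubicin (11) and 3 up in the CKI by doxorubicin interaction (5). Over all genes that filter gave 5125 down of 12485 with doxorubicin (6335 of 15881).

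With a replicate block, the CKI by 5-FU interaction had 2 members up (4), and no other count of members left its limit. Over all genes that interaction had 2088 up (2389). Offsets for GC content and length, with or without the replicate block, gave 2 DE with 5-FU (4), 5 up with vehicle (9), and 20 down in the CKI by 5-FU interaction, or 21 with the block (13). Over all genes these offsets, without the block, gave 1814 DE with 5-FU (1866) and 1830 up with vehicle (3682). In the CKI by 5-FU interaction they gave 3226 down (2007). They reversed ATP6V0B (0.22), ATP6V1C1 (-0.22) and CTSH (0.14, or 0.145 with the replicate block) for CKI in A431, ATP6V1G1 (0.005, or 0.006) against vehicle, GAA with doxorubicin (0.18), LAMP2 with CKI on top of doxorubicin (-0.23) and, without the block only, ATP6V0B between the lines (0.001, or -0.007 with the replicate block). For vehicle against untreated cells they reversed ATP6V0B (0.12), ATP6V1C1 (-0.09), ATP6V1G1 (-0.018, or -0.019 with the replicate block), CTSV (-0.21), CTSZ (0.011, or 0.009), LAMP2 (-0.14), SCARB2 (-0.007), TFE3 (0.006) and SQSTM1 (0.17). With vehicle libraries in place of untreated ones, doxorubicin reversed ATP6V0B (0.033) and GAA (0.40), and the CKI by doxorubicin interaction had 12 members beyond 1 (7) and reversed ATP6V1A (0.009), ATP6V1F (-0.29), CTSB (-0.21), SCARB2 (0.04) and TFEB (-0.11). No share over all genes is given here for those 12.

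Leaving out each library in turn gave for CKI in MDA-MB-231 9 to 18 up, 4 to 11 down, 1 to 2 DE and medians of 0.05 to 0.12, where the highest counts came without untreated replicate 1. Over all genes that fit gave 3582 up and 3780 down of 14193, against 2429 and 2637 of 13999 with all libraries. CKI in A431 ranged over 22 to 23 up, 8 to 9 down, 5 to 6 DE and medians of 0.30 to 0.34, and CKI against vehicle over 25 to 27, 6 to 8, 6 to 7 and 0.27 to 0.32. For doxorubicin these were 23 to 25, 10 to 12, 11 to 12 and 0.40 to 0.48, for 5-FU 12 to 19, 9 to 13, 3 to 4 and 0.007 to 0.089, and for vehicle 6 to 13, 9 to 14, 0 and -0.035 to 0.044. CKI on top of 5-FU gave 3 to 5 up, 8 to 9 down, 1 to 2 DE and -0.087 to -0.027, the 3 without 5-FU replicate 3, and CKI on top of doxorubicin 12 to 13, 21 to 23, 3 and -0.27 to -0.22. The CKI by 5-FU interaction ranged over 2 to 8 up, 7 to 22 down and medians of -0.25 to -0.13, with 7 down without 5-FU replicate 3, and the CKI by doxorubicin interaction over 4 to 6, 24 to 29, 7 to 9 DE and -0.42 to -0.33. The line by CKI interaction gave 12 to 22 up, 6 to 9 down, 6 to 8 DE and 0.23 to 0.39, and the untreated lines 14 to 19, 15 to 18, 10 to 11 and -0.088 to 0.068. Without untreated MDA-MB-231 replicate 1, GAA with CKI (-0.30, range to 0.21), ATP6V1G1 (0.22, from -0.16) and LAMP2 (0.11, from -0.14) with 5-FU, and ATP6V1E1 between the untreated lines (0.14, from -0.26) reversed.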
